A study of Homo sapiens with 15 samples.

Results

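The integrin and laminin subunit genes were followed on 15 arrays in 2 cell lines that the study describes as granulosa cell tumour lines. They were chosen by name alone, as every probe set whose single gene symbol is that of an integrin alpha or beta subunit or of a laminin alpha, beta or gamma chain, without the integrin-binding proteins. This gave 36 genes on 100 probe sets, out of 19775 genes on 54613 probe sets. Of the 36 genes, 26 carry an integrin name and 10 a laminin name. Where a gene has several probe sets, the one brightest on average over the 15 arrays represents it, and the others are described as well.

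Integrins are receptors made of an alpha and a beta subunit that span the plasma membrane and tie the extracellular matrix, or a neighbouring cell, to the actin cytoskeleton. Laminins are secreted trimers of an alpha, a beta and a gamma chain that build the sheet-like basement membrane, and several integrins are their receptors. In the ovary a basement membrane surrounds the granulosa cells of each follicle, and the granulosa cells themselves produce laminin and express integrins.

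The study altered FOXL2, a forkhead factor needed to maintain granulosa cells, in both lines and measured RNA on U133 Plus 2 arrays. KGN cells come from an adult-type granulosa cell tumour, are an established line and carry the FOXL2 mutation on 1 allele, and they received stealth siRNA against FOXL2 or a control siRNA of matched GC content, 3 arrays each. COV434 is an established line from a tumour classed as juvenile type, with wildtype FOXL2 that it hardly expresses, and it received empty vector, pFOXL2wt or pFOXL2m, 3 arrays each. Each well held 300000 cells at passage 8 (KGN) or 9 (COV434), the Lipofectamine complexes were removed after 7 h, RNA was taken at 24 h and 105 ng was amplified. COV434 wells received 1 µg of plasmid. Both genetic backgrounds are a single line, and a single siRNA product was used. The transfections of a group were separate but made on the same occasion, so the spread and the p-values leave out variation between occasions. The plasmids force expression in a line with little FOXL2 of its own.

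The values are log2 signals, so a difference of 1 is a doubling, and a mean is given ± SD over 3 arrays. A gene was called when its limma test passed at an adjusted p under 0.05, with the adjustment made over all 54613 probe sets. Signals were read against a background level, below which 95% of 143 probe sets for smell receptors and hair proteins (olfactory receptor and KRTAP genes) lay. It was 5.28 in KGN and 5.05 in COV434. In KGN the FOXL2 signal went from 8.07 with control siRNA to 6.30 with FOXL2 siRNA (adjusted p = 0.000556), and in COV434 it stayed between 2.57 and 2.87. The study places its probe set outside the FOXL2 sequence of the plasmids, so these arrays do not check the expression from them. The COV434 empty vector array RR1016 (replicate 1) stood apart in RNA quality. The signal at the 3′ end of ACTB exceeded that at the 5′ end by 7.81 on RR1016 and by 1.51 to 2.58 on the other 14 arrays. The counts of called integrin and laminin genes in every comparison that holds the empty vector arrays are therefore given without it as well. Of the granulosa markers 9 of 16 lay above background in KGN and 6 of 16 in COV434.

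In the deposited values, KGN cells had higher signals of most integrin and laminin genes than COV434 cells, with a few laminin chains the other way. The question here was how far the control cells of the lines differ, and KGN with control siRNA was set against COV434 with empty vector. In KGN 25 of the 36 genes were higher, where 39.7% of all genes were called higher, and 3 were lower, where 16.8% of all genes were called lower. Of these calls, 20 higher and 3 lower were of genes above background in a compared group. The 26 integrin genes gave 19 higher and 0 lower calls, and the 10 laminin genes gave 6 higher and 3 lower. The median difference was 1.01 over the 36 genes and 0.26 over all genes. Equal values occur within each line and none between them, as after a separate normalisation of each line, and the kind of transfection and the passage differ with the line, so these cannot be told apart from the line itself. After quantile normalization of the 6 arrays together, 20 genes were higher and 7 lower, so the share of higher among called genes went from 89.3% to 74.1%, and with each array centred on its median the counts were 19 and 7 (73.1%). For all genes the same share went from 70.3% to 42.3% and 33.6%. The integrins had 15 higher and 4 lower calls under either scaling. The laminins had 5 and 3 after quantile normalization and 4 and 3 with the arrays centred. These scalings moved the median of all genes to -0.09 and -0.23, and the median of the 36 genes to 0.52 and 0.51. The calls of ITGA2B, ITGA10, ITGAE, ITGAL and LAMB4 were lost under both scalings and that of LAMA5 with the arrays centred. Without RR1016, 26 genes were higher, where 43.8% of all genes were, and 3 lower, where 19.7% were, with ITGAX (0.59) as the additional call. The plot of signals on the 15 arrays shows the groups of both lines for every gene.

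**Figure D1:**
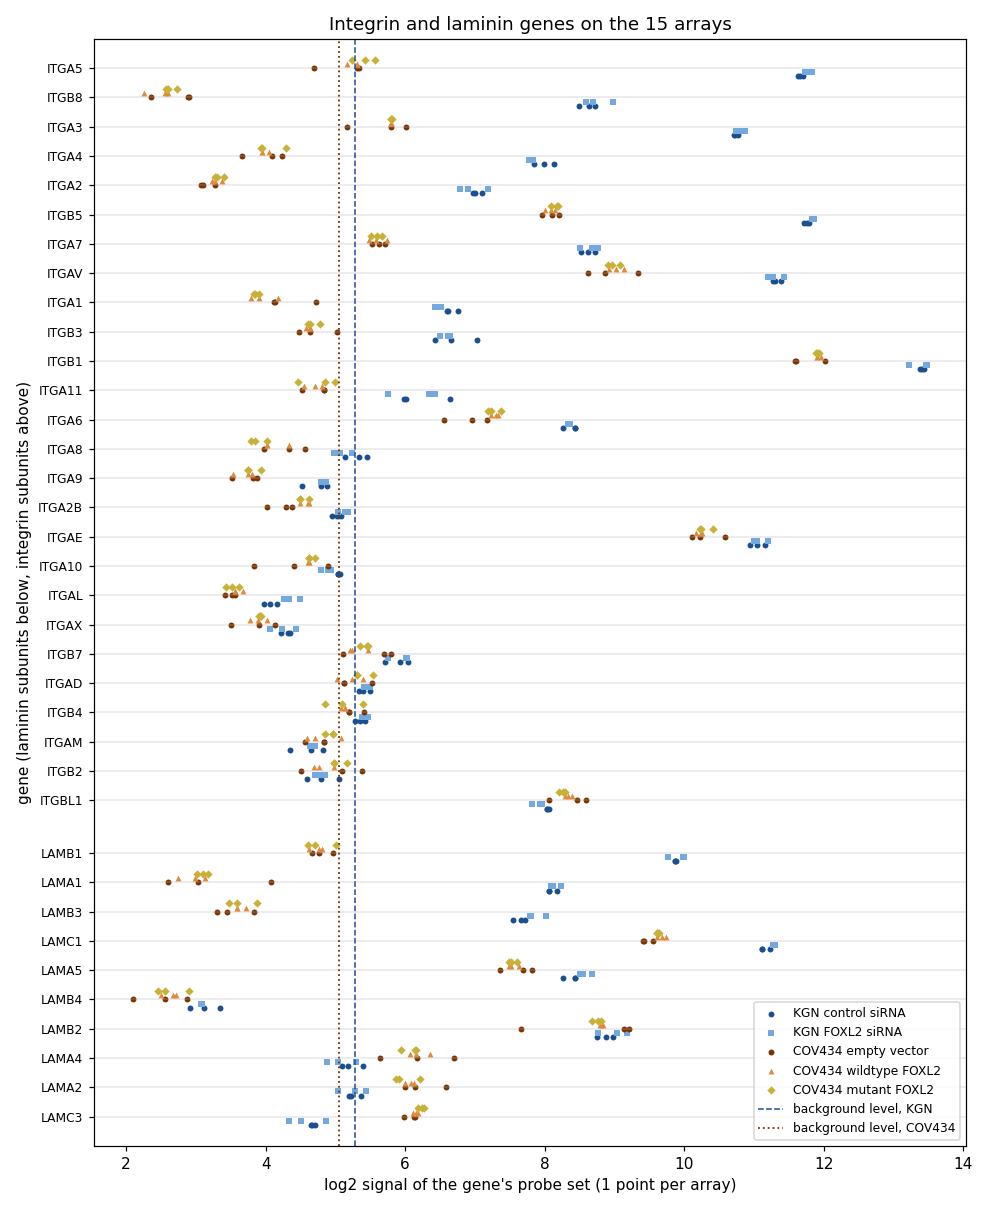
Log2 signal (horizontal axis) of the 36 integrin and laminin genes (vertical axis), 1 point per array, with the groups by colour and shape and the background levels of KGN (5.28) and COV434 (5.05) as vertical lines. The KGN points of ITGA5 lie between 11.63 and 11.83 and its COV434 points between 4.69 and 5.57, and within a line the groups lie close together for nearly every gene.

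Among the alpha subunits that bind the RGD motif of fibronectin and vitronectin, all 4 were called higher in KGN as deposited, and 3 under the other scalings. ITGA5, the alpha subunit of the classical fibronectin receptor, read 11.63, 11.70 and 11.65 on the KGN control arrays and 5.31, 4.69 and 5.34 on the COV434 empty vector arrays. Its COV434 values lie around the background level, so the gap of 6.54 (standard error 0.18, 93.4-fold, adjusted p = 4.49e-08) runs from a strong signal to a hardly detectable one. ITGAV, the alpha subunit that pairs with several beta subunits, was well above background in both lines, at 11.32 ± 0.0575 in KGN and 8.94 ± 0.362 in COV434 (difference 2.38, standard error 0.18). ITGA8, known from kidney development, lay at 5.31 ± 0.158 and 4.30 ± 0.295 and was called higher by 1.01, with its KGN signal at the background level. ITGA2B, the platelet subunit, was called higher by 0.79 but lay below background in both lines, and its call was lost after quantile normalization (0.30) and with the arrays centred on their median (0.30). The call of ITGA8 was lost as the mean of its probe sets (0.22, adjusted p = 0.11).

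All 3 alpha subunits that mainly bind laminin were higher in KGN. ITGA3, a laminin receptor subunit of epithelia and kidney, read 10.72, 10.73 and 10.77 in KGN and 5.17, 6.01 and 5.80 in COV434, a difference of 5.08 (standard error 0.21, 33.8-fold, adjusted p = 3.73e-07). ITGA7, the laminin receptor subunit of muscle, lay at 8.63 ± 0.0992 and 5.62 ± 0.0942, a difference of 3.01 (standard error 0.12). ITGA6, which serves in epithelial laminin receptors and in hemidesmosomes, differed less, with 8.43, 8.43 and 8.27 in KGN against 7.17, 6.56 and 6.95 in COV434 (difference 1.48, standard error 0.17, adjusted p = 0.000189). None of the 3 genes had overlapping arrays between the lines.

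The 4 collagen-binding alpha subunits were called higher in KGN too as deposited, and 3 of them under the other scalings. In COV434 all of them lay below background. ITGA2, the collagen receptor subunit of platelets and epithelia, read 6.98, 7.09 and 6.99 in KGN and 3.28, 3.11 and 3.07 in COV434, a difference of 3.87 (standard error 0.12, 14.6-fold, adjusted p = 6.37e-08). ITGA1, which binds type IV collagen, lay at 6.66 ± 0.0861 and 4.32 ± 0.343, a difference of 2.34. ITGA11, a fibroblast collagen receptor subunit, was higher by 1.49 with an uneven KGN group of 6.01, 5.98 and 6.65. ITGA10, of cartilage, was below background in both lines and was called higher by 0.67 (adjusted p = 0.0475), a call that was lost under both scalings (0.18 in each) and when any array but RR1016 was left out. ITGA4, which binds VCAM1 and fibronectin, read 8.14, 7.85 and 7.99 in KGN and 4.24, 4.09 and 3.66 in COV434, a difference of 4.0 (standard error 0.17, 16-fold), and its relative ITGA9 was called higher by 1.00 below background.

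The leukocyte alpha subunits behaved differently from gene to gene. ITGAE, which pairs with ITGB7 in lymphocytes of epithelia and binds E-cadherin, had a strong signal in both lines, at 11.05, 11.16 and 10.94 in KGN and 10.58, 10.11 and 10.22 in COV434. It was called higher in KGN by 0.74 (adjusted p = 0.00433), and lost that call with the arrays centred on their median (0.25) or after quantile normalization (0.41). ITGAL was called higher by 0.57 below background, with 0.13 and 0.08 and no call under the quantile and centred scalings, and ITGAM, ITGAX and ITGAD were not called, with differences of -0.14, 0.45 and 0.15. Leukocyte markers were read beside them. In KGN 2 of 8 lay above background (LCP1 and CSF1R) and in COV434 2 of 8 (PTPRC, at 7.45, and CD79A, at 5.21), with array means of the list of 4.61 to 4.72 and 4.14 to 4.61, and CD3E, CD14, LYZ and NKG7 lay below background in both lines. All arrays of ITGAL, ITGAM and ITGAX lay below background apart from a wildtype FOXL2 array of ITGAM at 5.07.

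Of the 7 beta subunits, 4 were higher in KGN and 3 were not called. ITGB8, which pairs with ITGAV and activates latent TGF-β, read 8.64, 8.72 and 8.50 in KGN and 2.88, 2.91 and 2.36 in COV434, a difference of 5.90 (standard error 0.17, 59.7-fold, adjusted p = 5.18e-08). This gap rests on the 1 probe set of ITGB8 that is above background, and the mean over its 5 probe sets differed by 1.80. ITGB5, the partner of ITGAV in a vitronectin receptor, lay at 11.75 ± 0.0373 and 8.09 ± 0.122, a difference of 3.66 (standard error 0.12). ITGB3, of platelet and endothelial receptors, read 7.02, 6.43 and 6.66 against 5.03, 4.48 and 4.64 and was higher by 1.99. ITGB1, the common partner of most alpha subunits, read 13.37, 13.41 and 13.44 against 12.01, 11.58 and 11.61, so it was strong in both lines and higher in KGN by 1.67 (standard error 0.14, adjusted p = 3.6e-05). ITGB2, ITGB4 and ITGB7 were not called, and their means in the compared groups lay between 4.81 and 5.89. ITGBL1, an integrin beta-like protein that is not a receptor subunit, lay at 8.04 ± 0.0186 and 8.37 ± 0.28 and was not called (adjusted p = 0.107).

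The plot of differences between the lines orders the genes by size and sets the other scalings beside them.

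**Figure D2:**
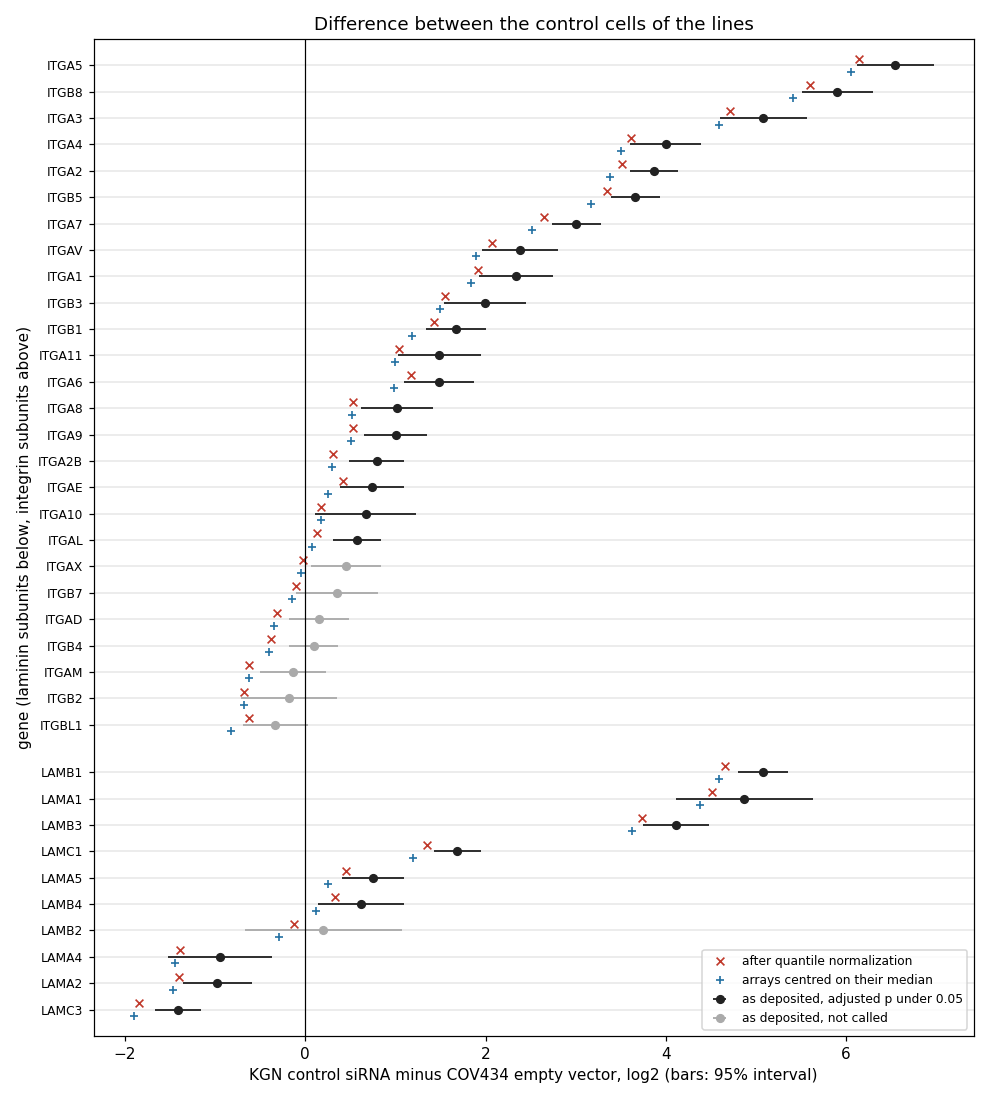
Difference in log2 signal between KGN control siRNA and COV434 empty vector (horizontal axis) for each gene (vertical axis), with 95% intervals for the deposited values and markers for quantile normalization and median centring. ITGA5 leads the integrins at 6.54 and LAMB1 the laminins at 5.08, while LAMC3, LAMA2 and LAMA4 lie below 0 and the other scalings shift the genes to the left.

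The laminin chains divided between the lines. LAMB1, the beta chain of many laminins, read 9.89, 9.87 and 9.86 in KGN and 4.96, 4.76 and 4.66 in COV434, a difference of 5.08 (standard error 0.12, 33.8-fold, adjusted p = 2.03e-08). LAMA1, the alpha chain of embryonic basement membranes, read 8.18, 8.07 and 8.07 against 3.03, 4.07 and 2.60, a difference of 4.87 with a standard error of 0.33, and the mean over its 2 probe sets differed by 3.08. LAMB3, a beta chain of epithelial basement membranes, lay at 7.64 ± 0.0851 and 3.53 ± 0.276, a difference of 4.12. All COV434 empty vector arrays of these 3 genes lay below background at their representative probe sets. LAMC1, the gamma chain of most laminins, was strong in both lines and higher in KGN by 1.69 (11.15 ± 0.0652 against 9.46 ± 0.0787), and LAMA5, the alpha chain of most adult basement membranes, was higher by 0.75 (8.37 ± 0.0967 against 7.62 ± 0.242). LAMA5 differed by 0.45 after quantile normalization and lost its call with the arrays centred on their median (0.26, adjusted p = 0.201). LAMB4 was called higher by 0.62 far below background, at 3.13 and 2.51, and that call was lost under both scalings (0.33 and 0.12) and without any of the KGN control arrays or empty vector replicate 2.

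LAMC3, LAMA2 and LAMA4 had higher signals in COV434. LAMC3, the gamma chain best known from brain and retina, read 4.65, 4.71 and 4.66 in KGN and 5.99, 6.14 and 6.13 in COV434, so it was lower in KGN by 1.41 (standard error 0.11, adjusted p = 2.03e-05). LAMA2, the alpha chain of muscle basement membrane, read 5.20, 5.36 and 5.23 against 6.0, 6.59 and 6.15, and was lower in KGN by 0.98 (standard error 0.17, adjusted p = 0.00169). LAMA4, the alpha chain of vessel and mesenchymal basement membranes, read 5.09, 5.40 and 5.17 against 6.70, 5.64 and 6.17, and was lower in KGN by 0.95 (standard error 0.25, adjusted p = 0.0141). The arrays of the lines did not overlap for any of these chains, and their KGN means lay below background, those of LAMA2 (5.27) and LAMA4 (5.22) only just. The call of LAMA4 was lost without KGN control replicate 1 (adjusted p = 0.0561) and without replicate 3 (0.0524), and its difference was -0.29 as the mean of its 5 probe sets, -0.68 without RR1016 and -1.44 with the arrays centred on their median. LAMA2 differed by -1.47 with the arrays centred on their median. LAMB2, the beta chain of nerve, muscle and kidney laminins, read 8.75, 8.98 and 8.87 in KGN and 7.66, 9.21 and 9.14 in COV434, and was not called. The low COV434 value is that of RR1016, and without this array LAMB2 differed by -0.31, again not called.

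Set against the background levels, 25 of the 36 genes were above background in KGN control cells (69.4%, against 60.3% of all genes) and 18 in COV434 empty vector cells (50%, against 56.3%). Both lines had 15 of these genes above background, KGN alone had 10, COV434 alone had LAMA2, LAMA4 and LAMC3, and 8 were below it in both. The genes of KGN alone were ITGA1, ITGA2, ITGA4, ITGA8, ITGA11, ITGB3, ITGB8, LAMA1, LAMB1 and LAMB3. Of 24 known integrin pairs, 23 had both subunits measured. Both subunits lay above background for 16 of them in KGN and for 8 in COV434, and the 8 were among the 16. ITGA5 counted in COV434 at 5.12, only just above the level of 5.05, with 5.31 on RR1016, 4.69 and 5.34. In KGN, ITGA8 at 5.31, ITGB4 at 5.35 and ITGAD at 5.41 were also only just above the level of 5.28. ITGB4 and ITGAD both lay at 5.26 in COV434. The pair of ITGA6 with ITGB4, counted in both lines, therefore rests on small gaps. The counts above background were not repeated without RR1016. Of 13 known laminin trimers considered here, 11 had all chains measured, and all chains lay above background for 4 in KGN and 5 in COV434, with 1 in common. That trimer is laminin-521, of LAMA5, LAMB2 and LAMC1. KGN alone had laminin-111, laminin-121 and laminin-511, which hold LAMA1 or LAMB1. COV434 alone had laminin-221, laminin-421, laminin-423 and laminin-523, which hold LAMA2, LAMA4 or LAMC3. LAMA2 (5.27) and LAMA4 (5.22) lay only just below the level of 5.28 in KGN. The absence of laminin-221 and laminin-421 from the KGN count therefore rests on small gaps. These counts take each gene at its representative probe set. Counting a gene as above background where any of its probe sets was, a choice made after seeing the data, 26 genes were above it in KGN and 19 in COV434, since a second probe set put ITGB2 above background in KGN (5.37) and LAMB1 in COV434 (5.12). The counts were then 17 integrin pairs in KGN and 8 in COV434, and 4 laminin trimers in KGN and 9 in COV434. All these counts describe RNA signals and do not show assembled proteins. In these arrays fewer expressing cells and less RNA per cell cannot be told apart.

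The remaining probe sets of these genes gave no call opposite to that of a called representative. Of the 100 probe sets, 57 were called higher in KGN and 11 lower. These counts include the 36 representatives, with their 25 higher and 3 lower calls, so they are not separate evidence from the gene counts. Of all 54613 probe sets, 21127 were called higher and 7156 lower. Of the 26 genes with several probe sets, 0 had calls in both directions. ITGB2, the leukocyte beta subunit, had a representative probe set that was not called at -0.18, while its other 2 probe sets were higher in KGN by 1.40 and 1.63. All 4 other probe sets of ITGBL1 were lower in KGN, with differences of -0.70, -1.29, -1.49 and -1.89, whereas its representative was not called. The representative of ITGBL1 also had the smallest gap of its 5 probe sets. For ITGB4, a partner of ITGA6 in hemidesmosomes, 2 weaker probe sets were called higher by 0.66 and 0.56 below background. ITGB1 had 3 probe sets above background, with differences of 1.67, 2.98 and 3.23, and its 4 weaker ones gave 0.04 to 0.67. ITGA2 differed by 5.33 at its second probe set, ITGB5 by 0.96 to 4.43 over its 4 and ITGB3 by 0.33 to 3.13 over its 7. Weaker probe sets of ITGA8, ITGA9, ITGA2B, LAMA2 and LAMA4 had the opposite sign of the representative and were not called.

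**Figure D3:**
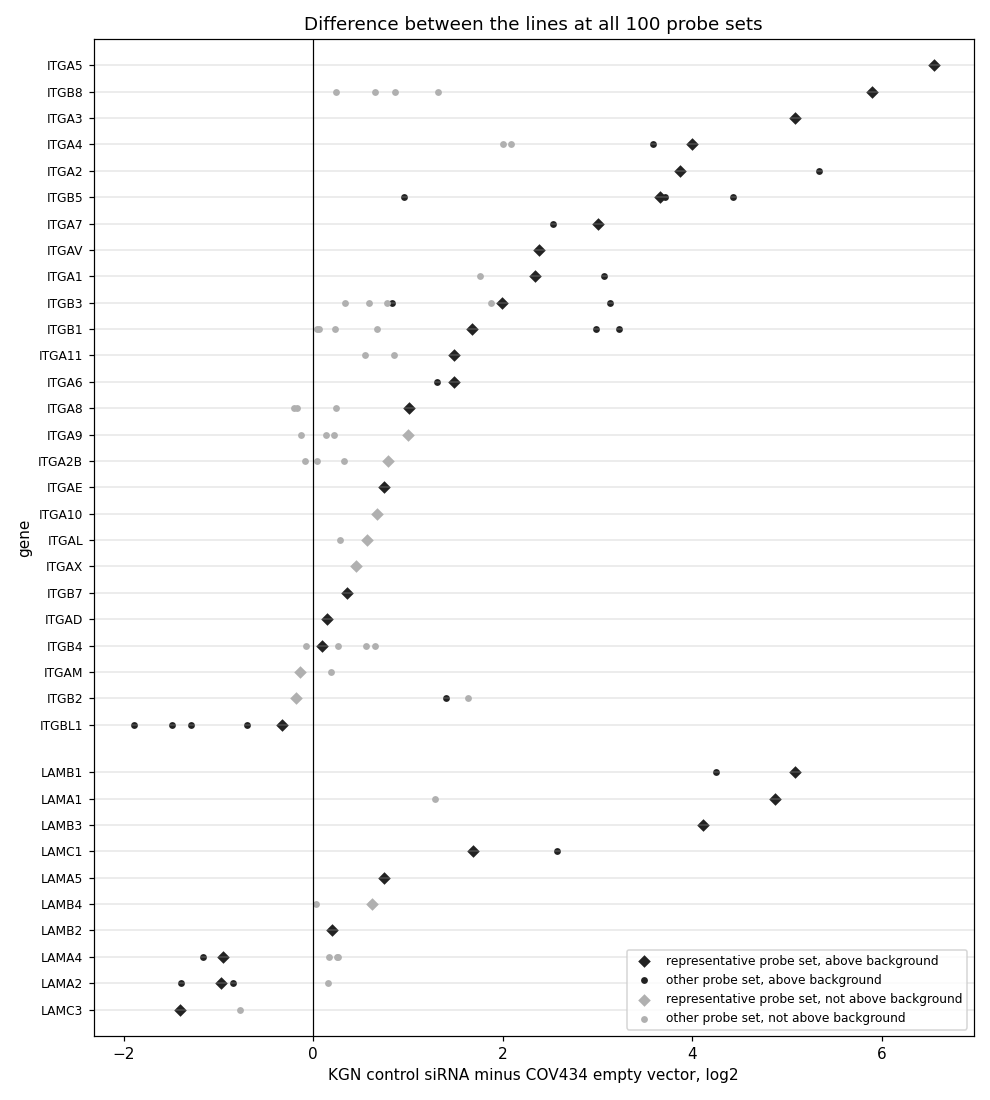
Difference in log2 signal between KGN control siRNA and COV434 empty vector (horizontal axis) at all 100 probe sets, by gene (vertical axis), with diamonds for the representative probe set and grey for probe sets below background in both groups. The 5 ITGBL1 probe sets all lie below 0, while the strong difference of ITGB8 (5.90) belongs to 1 probe set and its other 4 lie between 0.24 and 1.32.

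The promoters of genes that led the differences in each direction between the lines are shown. An entry in the RefSeq promoter table (GRCh38.p14) was found for 25 of the 36 genes, and the 250 bases before the start of each gene were read. The sequences are those of the 3 genes with the largest differences toward KGN and the 2 with the largest toward COV434 among genes with an entry. Capitals mark the GC box GGGCGG on either strand, a binding motif of SP1-type factors, and the sequences run 5′ to 3′ on the gene's strand. ITGA5 lies on the minus strand at chr12:54419267-54419516, ITGB8 on the plus strand at chr7:20330650-20330899, LAMB1 on the minus strand at chr7:108003162-108003411, LAMA2 on the plus strand at chr6:128882888-128883137 and LAMA4 on the minus strand at chr6:112254568-112254817.
ITGA5: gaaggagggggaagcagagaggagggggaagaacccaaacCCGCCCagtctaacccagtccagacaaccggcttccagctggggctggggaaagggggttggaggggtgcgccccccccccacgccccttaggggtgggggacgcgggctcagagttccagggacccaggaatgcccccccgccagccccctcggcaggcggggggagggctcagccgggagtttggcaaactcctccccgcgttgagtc
ITGB8: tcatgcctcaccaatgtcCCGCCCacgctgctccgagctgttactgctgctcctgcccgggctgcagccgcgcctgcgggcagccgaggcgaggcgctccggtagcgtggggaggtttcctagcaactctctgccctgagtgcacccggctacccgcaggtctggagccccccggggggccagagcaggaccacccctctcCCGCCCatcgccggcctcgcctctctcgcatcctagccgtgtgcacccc
LAMB1: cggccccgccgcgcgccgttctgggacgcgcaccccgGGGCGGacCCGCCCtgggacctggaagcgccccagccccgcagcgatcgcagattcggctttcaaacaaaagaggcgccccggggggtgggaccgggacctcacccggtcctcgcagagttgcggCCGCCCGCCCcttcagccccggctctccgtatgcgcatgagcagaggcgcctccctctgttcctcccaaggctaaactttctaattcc
LAMA2: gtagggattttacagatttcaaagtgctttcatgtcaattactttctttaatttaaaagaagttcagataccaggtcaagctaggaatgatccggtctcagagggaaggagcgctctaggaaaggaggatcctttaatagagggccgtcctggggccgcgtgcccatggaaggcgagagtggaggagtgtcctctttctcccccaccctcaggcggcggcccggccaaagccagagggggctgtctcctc
LAMA4: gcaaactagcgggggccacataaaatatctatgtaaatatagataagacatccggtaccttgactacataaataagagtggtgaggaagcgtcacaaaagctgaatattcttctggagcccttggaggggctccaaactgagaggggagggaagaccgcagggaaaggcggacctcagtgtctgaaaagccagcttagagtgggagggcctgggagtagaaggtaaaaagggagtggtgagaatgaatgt

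The 3 promoters of genes higher in KGN held 1, 2 and 4 GC boxes, a pair of which overlap in LAMB1, and those of LAMA2 and LAMA4 held 0. Their GC content was 70% for ITGA5, 71.2% for ITGB8 and 70.4% for LAMB1, and 53.2% for LAMA2 and 48.4% for LAMA4. These genes were picked by their differences between the lines, and a link between promoter sequence and direction was not tested. Over all 25 promoters, 13 held a GC box (52%), against 42.3% of the 27305 promoters in the table, and the median GC content was 62% against 58%. The forkhead core TGTTTAC was in 0 of the 25 and in 2.98% of all promoters, and the AP-1 site TGACTCA in 0 of the 25 and in 4.16% of all. Both strands were searched for each motif. No match says only that these letters are not in this window.

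Partner genes of the integrins and laminins were also mostly higher in KGN. Of 31 genes of the integrin adhesion complex, 25 were higher and 2 lower, where 39.7% of all genes were called higher and 16.8% lower. TNS3, a tensin that links integrin tails to actin, was higher in KGN by 8.19 (10.96 against 2.77), TGFB1I1, the paxillin relative Hic-5, by 7.63, CSRP1 by 7.23 and PARVA, the parvin that binds integrin-linked kinase, by 6.80. LIMS1 and FERMT2 were the 2 lower genes, with differences of -1.18 and -0.31. Of 17 integrin ligands outside the laminins, 14 were higher and 1 lower, with FN1 (fibronectin) higher by 7.22, TNC (tenascin C) by 7.20, CCN2 by 6.69 and EDIL3 by 5.82. FN1, the ligand of ITGA5 with ITGB1, lay at 13.58 in KGN and 6.35 in COV434. VCAM1, a ligand of ITGA4, was higher by 5.30.

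Of 23 basement membrane partners of laminins, 17 were higher in KGN and 1, FBLN1, was lower, with a difference of -2.37. The chains of the main type IV collagen, COL4A1 and COL4A2, were higher by 9.62 and 9.54, SPARC by 9.97 and NID2, a nidogen that joins laminin to collagen, by 5.64. NID1 was not called. Of 11 membrane partners such as tetraspanins, 9 were higher and 0 lower, with CAV1 (caveolin) higher by 5.36, PLAUR (the urokinase receptor) by 3.14 and the tetraspanins CD82 and CD9 by 3.02 and 2.73. With quantile normalization the counts of higher and lower genes were 23 and 3 of 31, 11 and 3 of 17, 14 and 3 of 23 and 8 and 0 of 11, in the same order of lists. Of all genes, 21.5% were then higher and 29.4% lower. With the arrays centred on their median, the counts of these lists were 22 and 3, 11 and 3, 12 and 4 and 8 and 0. Marker lists of other cell types moved as well, beside 39.7% of all genes higher and 16.8% lower as deposited (19% and 37.4% with the arrays centred). The fibroblast and smooth muscle list had 6 of 11 markers higher and 2 lower in KGN (6 and 3 under either other scaling). COL1A1 was higher by 8.70, and LUM and DCN were at -5.36 and -4.26. Epithelial markers had 7 of 10 higher and 0 lower (2 and 0 under either other scaling), of which KRT7 and MUC1 were above background in KGN. Endothelial markers had 6 of 10 higher and 2 lower, TEK and ERG (3 and 2 after quantile normalization, 3 and 3 with the arrays centred), while CDH5 and TIE1 lay between 2.86 and 3.29 in both lines. The part of these differences in the integrin and laminin results was not tested.

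**Figure D4:**
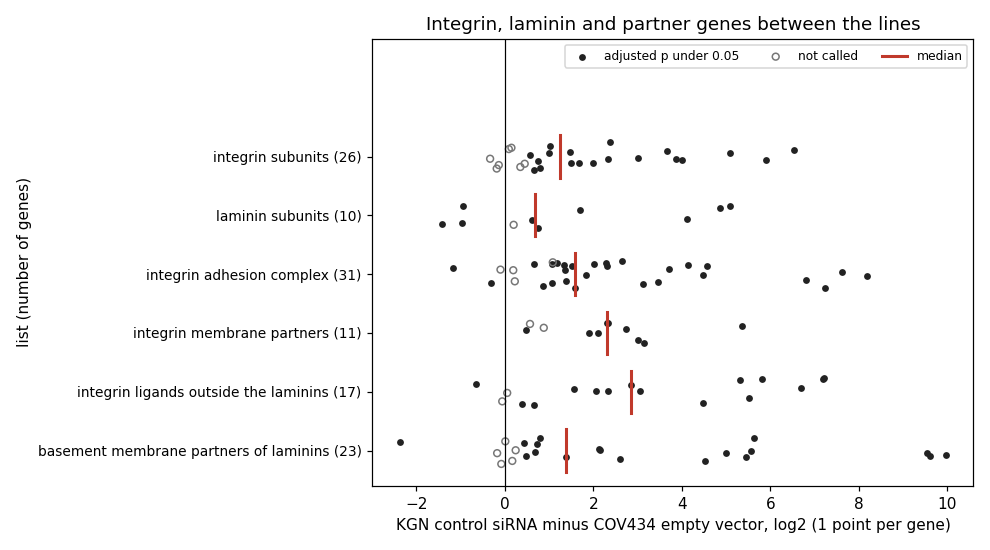
Difference in log2 signal between KGN control siRNA and COV434 empty vector (horizontal axis), 1 point per gene, for the integrin and laminin subunits and 4 lists of partner genes, with filled points for called genes and a bar at each median. The medians are 1.25 for integrins, 0.68 for laminins, 1.59 for the adhesion complex, 2.31 for membrane partners, 2.84 for ligands and 1.38 for basement membrane partners.

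FOXL2 knockdown left the integrin and laminin genes of KGN within small differences, and none was called. The question was which of them respond to the loss of FOXL2. Called higher were 0 of the 36 genes, where 0.268% of all genes were, and 0 lower, where 0.243% were. At an unadjusted p under 0.05 there were 3 of the 36, against 8.19% of all genes. The arrays of knockdown and control did not overlap for 10 of the 36, against 16.8% of all genes. The median difference was 0.02 over the 36 genes and 0.01 over all genes, and all differences lay between -0.21 and 0.29. For the 25 genes above background, the 95% intervals ran from -0.52 at the lowest to 0.45 at the highest. Each interval is for a single gene, is not adjusted for the number of genes and leaves out variation between occasions. The smallest adjusted p among these 25 was 0.649, that of LAMB3.

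The largest values after knockdown were those of ITGAL, LAMB3, ITGA8 and LAMA5. LAMB3 read 8.01, 7.81 and 7.79 with FOXL2 siRNA and 7.71, 7.55 and 7.66 with control siRNA, a difference of 0.23 (standard error 0.10, adjusted p = 0.649) without overlap of the groups. LAMA5 read 8.54, 8.51 and 8.68 against 8.26, 8.43 and 8.43, a difference of 0.20 (adjusted p = 0.673). ITGA8 differed by -0.21 with overlapping arrays, and by 0.0214 as the mean of its probe sets. ITGA1 and ITGA4 each differed by -0.19, with knockdown arrays of 6.42, 6.51 and 6.47 against 6.76, 6.61 and 6.61 for ITGA1 and of 7.83, 7.81 and 7.77 against 8.14, 7.85 and 7.99 for ITGA4. LAMC1 and ITGA5 differed by 0.14 and 0.13 and ITGBL1 by -0.14, all without overlap and without a call. ITGAL differed by 0.29 (adjusted p = 0.513) at signals below background.

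Among the partner genes, FERMT2 was the only one called after knockdown in the 4 lists, as 1 lower gene of the 31 in the adhesion complex list. Of all genes, 0.243% were called lower. In that list 7 had an unadjusted p under 0.05, against 8.19% of all genes. FERMT2 encodes kindlin-2, which binds the tails of integrin beta subunits and activates the receptors. It read 10.66, 10.71 and 10.70 with FOXL2 siRNA and 11.65, 11.63 and 11.62 with control siRNA, and fell by 0.94 (log2; standard error 0.08, 1.92-fold lower, adjusted p = 0.00204). Its other 2 probe sets differed by -0.75 (adjusted p = 0.18) and -0.77 (adjusted p = 0.536) and were not called. The call held under all 11 other settings tried, with differences of -0.95 to -0.82. In COV434 the same probe set read 11.76, 11.76 and 11.79 with wildtype FOXL2, 11.64, 11.67 and 11.64 with mutant FOXL2 and 11.99, 11.97 and 11.88 with empty vector, and neither comparison was called (adjusted p = 0.456 and 0.221). The talins TLN1 and TLN2 and the kindlins FERMT1 and FERMT3 were not called after knockdown.

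Wildtype FOXL2 in COV434 gave no call among the integrin and laminin genes, with 0 of 36 where 0% of all genes were called. At an unadjusted p under 0.05 there were 3, against 11.5% of all genes, and the arrays did not overlap for 4, against 15% of all genes. Differences lay between -0.36 and 0.39, and the 95% intervals of the 18 genes above background ran from -0.60 to 0.88. ITGA6 read 7.32, 7.30 and 7.23 with wildtype FOXL2 and 7.17, 6.56 and 6.95 with empty vector, a difference of 0.39 (standard error 0.14, adjusted p = 0.398). LAMC1 read 9.74, 9.61 and 9.68 against 9.41, 9.55 and 9.43, a difference of 0.22 (adjusted p = 0.415). Both genes were without overlap. ITGB1 differed by 0.19, LAMA2 by -0.18, ITGB7 by -0.23, ITGA5 by 0.15, ITGA3 by 0.14 and ITGB4 by -0.15, all with 95% intervals that hold 0.

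Mutant FOXL2 was set against the same 3 empty vector arrays and gave no call either, with 0 of 36 where 0% of all genes were called. At an unadjusted p under 0.05 there were 4, against 14.2% of all genes, and the arrays did not overlap for 6, against 16.5% of all genes. ITGA6 read 7.23, 7.18 and 7.38 with mutant FOXL2, a difference from empty vector of 0.37 (standard error 0.14, adjusted p = 0.34). ITGA1 read 3.85, 3.83 and 3.90 against 4.13, 4.72 and 4.12, a difference of -0.46 below background (adjusted p = 0.312). LAMA2 differed by -0.24, ITGA5 by 0.29, ITGB1 by 0.17, LAMC1 by 0.16, ITGA3 by 0.15, ITGB4 by -0.15 and LAMC3 by 0.15. The 18 genes above background had 95% intervals between -0.67 and 0.82.

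The comparisons with empty vector were also run without RR1016. Then 0 of the 36 genes were called for wildtype FOXL2, where 1.75% of all genes were higher and 1.06% lower, and 11 had an unadjusted p under 0.05, against 24% of all genes. For mutant FOXL2 without RR1016, 0 of the 36 were higher and 1 lower, where 2.02% and 1.6% of all genes were, and 10 had an unadjusted p under 0.05, against 25.2% of all genes. The lower gene was LAMB2. Its mutant FOXL2 arrays read 8.67, 8.76 and 8.80 and its empty vector arrays 9.21 and 9.14 when RR1016 (7.66) was left out, a difference of -0.43 (standard error 0.08, adjusted p = 0.0361). With RR1016 the difference was 0.07 with an interval of -0.67 to 0.82. Wildtype FOXL2 arrays of LAMB2 read 8.80, 8.83 and 8.79, and without RR1016 their difference was -0.37 (adjusted p = 0.0513). ITGA6 differed by 0.53 and 0.51 (adjusted p = 0.0583 and 0.0579) and ITGB1 by 0.33 and 0.31 (adjusted p = 0.0594 in both) for wildtype and mutant FOXL2 without RR1016. ITGA3 turned to -0.10 in both comparisons, and its 3 wildtype arrays held the same value of 5.80.

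No integrin or laminin gene was called between mutant and wildtype FOXL2. The test called 0 of the 36, where 0% of all genes were called, 0 had an unadjusted p under 0.05, against 1.01% of all genes, and 0 had arrays without overlap, against 9.14%. Differences lay between -0.24 and 0.22, and the smallest adjusted p was 1. The most distant genes above background were ITGAD at 0.17, ITGA5 at 0.14, LAMA4 at -0.12, ITGB7 at 0.12 and ITGBL1 at -0.09. The 95% intervals of the 18 genes above background ran from -0.81 to 0.68, with the widest for LAMB2. Over all 100 probe sets, 0 were called in any of the 4 FOXL2 comparisons, and 6, 13, 15 and 2 had an unadjusted p under 0.05 for knockdown, wildtype, mutant and mutant against wildtype.

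**Figure D5:**
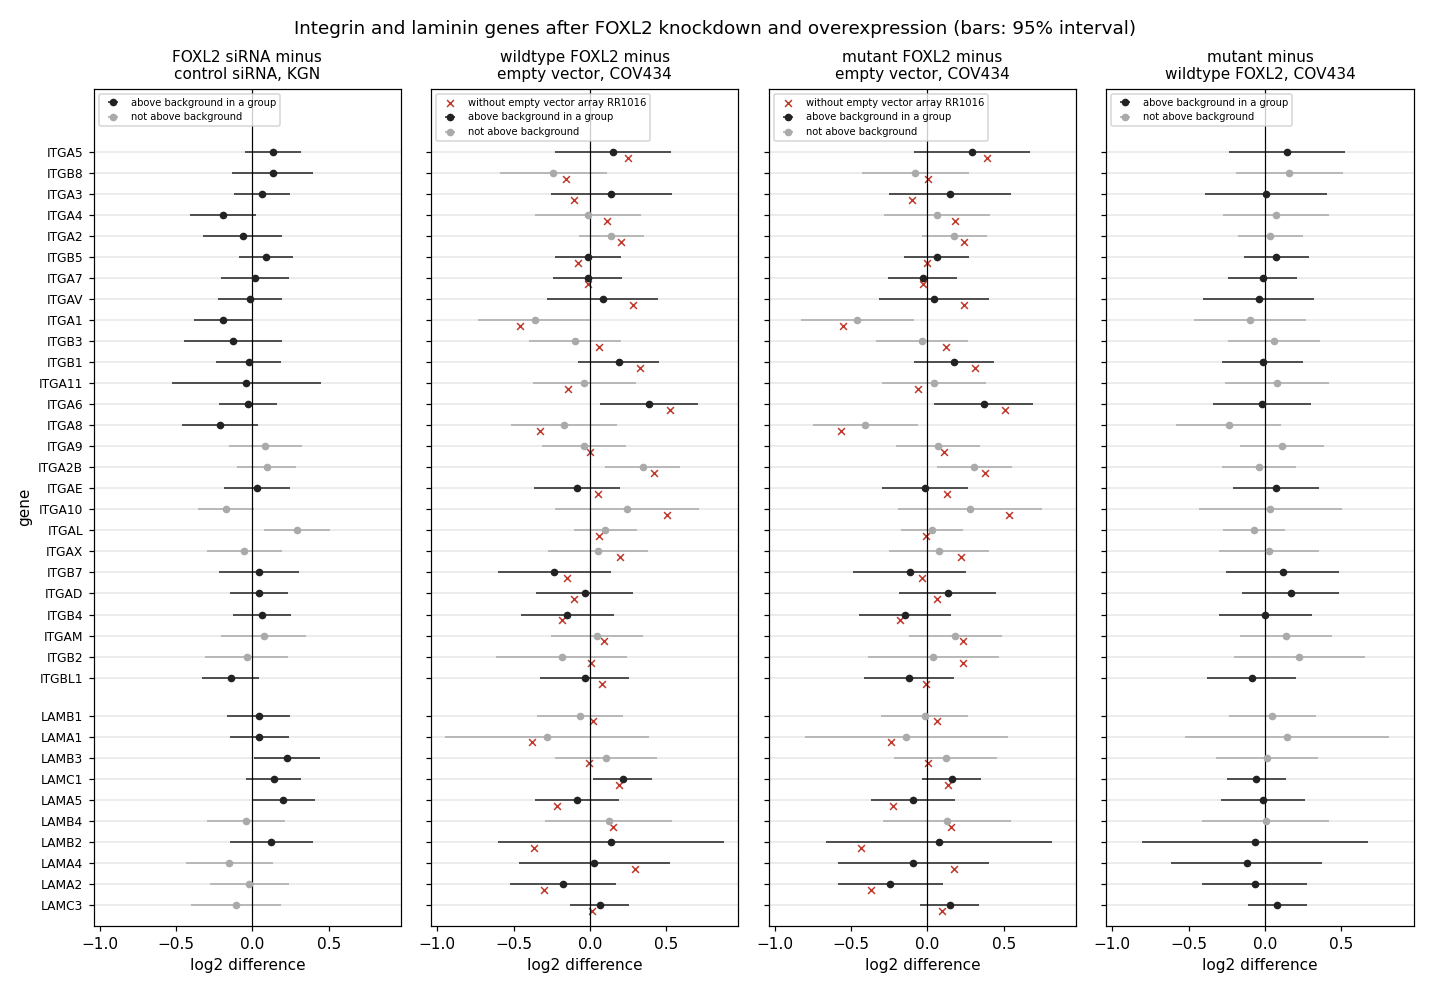
Log2 difference (horizontal axes) with its 95% interval for the 36 genes (vertical axis) in the 4 FOXL2 comparisons, black for genes above background in a group compared and crosses for the values without RR1016. The KGN knockdown differences lie between -0.21 and 0.29, and the cross of LAMB2 at -0.43 in the mutant panel is the only called value among the crosses.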

How the data were processed

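RNA of 15 samples in 5 groups of 3 was measured on U133 Plus 2 arrays. The authors deposited log2 signals made by RMA, per the submitters' processing notes. The software version is not given in the sources used here. No equal values occur between the lines, against 1012 to 4295 between pairs of COV434 arrays and 21 to 93 in KGN, as after a separate normalisation of each line. Of 54675 probe sets, 62 array controls were left out, and 0 columns were unmapped. Probe sets were named through the platform annotation, with 41091 holding 1 symbol, 1801 several and 11721 none. Array number limits the precision.

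Groups were compared from these log2 values with lmFit and eBayes of limma 3.58.1 in R 4.3.3, two-sided, with 95% intervals and Benjamini-Hochberg adjustment at a threshold of 0.05. The fits held 6 KGN arrays, 9 COV434 arrays, or the 6 control arrays of both lines. The fit was run on simulated data with independent noise at each probe set, a check of the calculation and not of the calls. With 3 arrays against 3, an exact two-sided permutation test cannot go below 0.1. The labels give no replicate numbers, so replicates were numbered within each group in the order of deposit, which pairs nothing. The transfection label of mutant array RR1019 reads Mutant, and its title places it in the mutant group.

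Members, lists and tests were chosen with earlier results of these data known. Named genes are all members called (up to 15 a direction), or, where fewer than 8 were called, the members above background with the largest differences up to 8, and up to 4 genes per list. Genes chosen after their values were seen are ITGAL, ITGB2 and LAMB2 in the FOXL2 comparisons, VCAM1, the uncalled list genes and the cell type markers. Alternatives were quantile normalization, median centring (lines), a background filter, eBayes with trend and robust, array weights, the mean of a gene's probe sets, other sets of arrays in the fit and leaving out each array.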

Additional observations from a re-analysis of the deposited data

How the results depend on the processing

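In the comparison of the lines, 7 of the 36 genes were lower in KGN after quantile normalization and 7 with arrays centred on their median, against 3. The 4 additional genes were ITGAM, ITGB2, ITGB4 and ITGBL1. ITGAM (4.61 in KGN and 4.75 in COV434) and ITGB2 (4.81 and 5.00) lay below background in both lines at their representative probe sets. The other probe sets of ITGB2 were called higher in KGN as deposited. The 28 genes called there kept their direction under every alternative in which they were tested, and 20 kept their call under all of them. The other 8 lost it under at least 1 alternative: ITGA2B, ITGA8, ITGA10, ITGAE, ITGAL, LAMA4, LAMA5 and LAMB4, with LAMA4 at -0.88 and -0.92 without KGN control replicates 1 and 3. Leaving out 1 array in turn gave 0 to 1 lower genes for mutant FOXL2 against empty vector, where the 1 is LAMB2 without RR1016 (empty vector replicate 1), and the cause was not tested. The knockdown, wildtype and mutant against wildtype counts stayed at 0 under all alternatives run. Of the genes named without a call, these changed sign. As the mean of probe sets, ITGA8 was at 0.0214 after knockdown, ITGB4 at 0.0437 with wildtype and 0.025 with mutant FOXL2, and LAMA4 at 0.0616 for mutant against wildtype. With 1 array left out, ITGA3 ranged from -0.104 to 0.316 with wildtype and from -0.0985 to 0.321 with mutant FOXL2 (lowest without RR1016), and ITGA5 from -0.0621 (without empty vector replicate 2) to 0.264 with wildtype FOXL2. No paired analysis was possible because the labels give no replicate numbers, and the numbers used here follow array order and only name the arrays. Signals near background limit what can be read for ITGAL, ITGAM, ITGAX, ITGA2B, ITGA9, ITGA10, ITGB2 and LAMB4, where differences are compressed.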
